A study of Mus musculus with 30 samples.

Results

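Cholesterol and fatty acid synthesis was followed through 34 genes, read by symbol from the gene column of both count tables. They were 5 regulators, 7 genes of the mevalonate arm, 11 of the sterol arm, 3 of cholesterol transport, 4 of fatty acid synthesis and 4 desaturases. All 34 were found among the 13353 genes of the bone marrow (BM) table and among the 17059 genes of the table of adipose tissue macrophages (ATMs), and all 34 passed the low-count filter in both. The rule uses their symbols, not a threshold on measured values.

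All recipients had been lethally irradiated with 700 and 400 cGy and had received 500K CD45.2+ BM cells of Shp2E76K/+;LysM-Cre+ donors together with as many CD45.1+ cells of Boy/J mice. The donors carry the leukemia-associated E76K allele of Shp2, and LysM-Cre is active mainly in myeloid cells. The competitor cells and the recipient's own tissue came from other mice and lacked the allele. The 5 groups were lean WT recipients, for which no treatment is stated, and leptin-deficient Ob/Ob recipients treated from 8 weeks after transplantation for 30 days with vehicle (Vehicle), the GLP-1 receptor agonist beinaglutide at 3 mg/kg subcutaneously (GLP-1RA), an anti-IL-17A antibody at 200 µg per mouse intraperitoneally 3 times a week (Anti-IL-17A), or both agents (Combo). Mice of both sexes, 12 to 14 weeks old by the sample labels, were used, and each group of 3 mice gave 3 libraries of whole BM and 3 of ATMs, which had been sorted as F4/80+ cells from visceral fat. The paper gives a slightly younger recipient age at irradiation. The 12 to 14 weeks are not taken as the age at tissue collection, which in Ob/Ob recipients came after the 30 days of treatment. Vehicle vs WT asks what differed in obese recipients, and the comparisons among Ob/Ob groups ask what each treatment changed. Every Vehicle vs WT difference holds the recipient genotype together with the vehicle injections, which cannot be told apart. Sex-linked RNA differed between groups as well, as given below, so that any comparison can also hold a difference in sex.

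Cells make cholesterol from acetyl-CoA through the mevalonate arm, which ends in farnesyl pyrophosphate, and the sterol arm, which turns squalene into lanosterol and then cholesterol. When sterols in the endoplasmic reticulum are low, SCAP escorts the transcription factor SREBP2, the product of *Srebf2*, to the Golgi, where its active part is released and switches these genes on, and INSIG proteins hold SCAP back when sterols are plentiful. SREBP1, from *Srebf1*, acts in the same way mainly on fatty acid synthesis and desaturation. Macrophages take up much cholesterol with lipoproteins and dead cells, and their synthesis genes are known to respond to that load.

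The libraries held 31086184 to 39925495 counts on genes in BM and 24876074 to 45300263 in ATMs. Libraries of a group varied more in ATMs, where edgeR estimated a biological coefficient of variation of 32.5% over all genes and 13.2% as the median of the members, than in BM, where these were 3.51% and 4.18%, so smaller differences passed the test in BM. Replicate 1 of WT BM stood apart, with a chi-square per degree of freedom of 39.35 and 30.01 against the other WT libraries, where all other pairs within BM groups were at 2.04 to 4.50, and without it 5 members were again called in Vehicle vs WT. Whether libraries of a group came from single mice or from pooled cells is not settled by the files, and if cells were pooled, the p-values and SEs measure technical spread only. Marker levels are in CPM, counts scaled to the library total times its TMM scaling factor. In ATMs, 7 of 8 neutrophil markers were present, and their summed level was 237 to 257 CPM in WT and 21300 to 22600 in Vehicle. It was 176 to 179 with GLP-1RA, 386 to 400 with Anti-IL-17A and 12400 to 12800 with Combo. *Adgre1*, which encodes the F4/80 antigen of the sort, was at 192 to 230 CPM in WT and 30.2 to 52.4 in Vehicle. Transcripts of other organs were present as well, with 5 of 6 epididymal markers summing to 2990 to 3140 CPM in WT ATMs and 0 to 0.586 in Vehicle, and 9 of 10 pancreatic acinar markers to 1240 to 1270 CPM in Combo ATMs against 7.61 to 27.6 in the other groups. In BM, all 10 macrophage markers were present and summed to 13200 to 13500 CPM in WT against 4180 to 4210 in Vehicle. Their sum was 3610 to 3630 with GLP-1RA, 6620 to 6670 with Anti-IL-17A and 6530 to 6640 with Combo. In bulk RNA, fewer cells of a type and less RNA per cell cannot be told apart.

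The sequence before the start of these genes is shown because the members share a known regulator. RefSeq promoter entries (build GRCm38.p6) were matched by symbol for 26 of the 34 members and were not given for *Fdps*, *Fdft1*, *Sqle*, *Stard4*, *Npc1*, *Scd1*, *Scd2* and *Fads1*. The 250 bases before each start were searched on both strands for TCACNCCAC, a form of the sterol regulatory element, for CCAAT, the letters bound by NF-Y, and for GGGCGG, the GC box of Sp1. The first was found before 1 of the 26 members (*Hmgcs1*) and before 1.22% of 27025 genes in all. CCAAT was found before 20 of the 26 members and 37.5% of all genes (39.4% of the genes in the count tables), and GGGCGG before 22 of the 26 and 35.4% (56.7% of the genes in the count tables). Motif letters are in capitals in the stretches below, read 5′ to 3′ on the strand of the gene and trimmed to bases outside annotated exons.
*Srebf2*, chr15:82147019-82147180, plus strand: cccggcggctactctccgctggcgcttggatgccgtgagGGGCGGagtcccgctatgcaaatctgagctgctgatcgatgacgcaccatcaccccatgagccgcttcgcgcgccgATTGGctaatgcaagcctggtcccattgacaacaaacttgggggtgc
*Hmgcs1*, chr13:119690101-119690350, plus strand: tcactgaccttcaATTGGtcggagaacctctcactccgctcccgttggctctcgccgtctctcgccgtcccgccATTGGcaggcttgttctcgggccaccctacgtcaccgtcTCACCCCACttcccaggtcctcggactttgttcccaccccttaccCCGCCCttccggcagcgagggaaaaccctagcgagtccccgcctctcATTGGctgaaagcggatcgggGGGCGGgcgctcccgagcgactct
*Mvk*, chr5:114444061-114444268, plus strand: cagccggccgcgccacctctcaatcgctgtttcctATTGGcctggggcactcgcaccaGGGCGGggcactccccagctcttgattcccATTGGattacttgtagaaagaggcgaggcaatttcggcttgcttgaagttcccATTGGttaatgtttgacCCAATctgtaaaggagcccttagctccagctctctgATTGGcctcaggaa
*Fasn*, chr11:120824548-120824797, minus strand: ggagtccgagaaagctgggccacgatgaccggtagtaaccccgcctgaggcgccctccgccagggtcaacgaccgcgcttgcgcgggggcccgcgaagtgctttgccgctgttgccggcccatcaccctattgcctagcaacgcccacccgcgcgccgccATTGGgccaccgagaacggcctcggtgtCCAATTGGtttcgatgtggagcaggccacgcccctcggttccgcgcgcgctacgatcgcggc

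The gene of the regulator itself, *Srebf2*, held 1 CCAAT and 1 GGGCGG in its stretch. In *Hmgcs1*, the TCACNCCAC match began 137 bases before the start, with CCAAT matches beginning 176 and 45 bases before it and a further one at 237. *Mvk* held 5 CCAAT matches within 208 bases. *Fasn* held 3, of which those at 62 and 59 bases overlap as a palindrome. These are matches of letters, and no binding was measured.

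A score for each role group, the mean over its genes of the log2 normalized count (with 0.5 added) minus the gene's mean over the 15 libraries of the tissue, gives the overall picture. In BM, the mevalonate and sterol arms were lowest in Vehicle and highest in Combo, whereas in ATMs the desaturases stood out, with scores of 1.77 to 1.84 in WT and -1.65 to -1.43 in Vehicle. In a 5-group F test (edgeR), 33 of 34 members differed among the groups in BM, where 95.1% of all genes did, and 29 of 34 in ATMs, where 73.5% of all genes did. That a member differed at all was therefore no property of this list in BM, and the accounts that follow rest on directions and sizes.

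**Figure D1:**
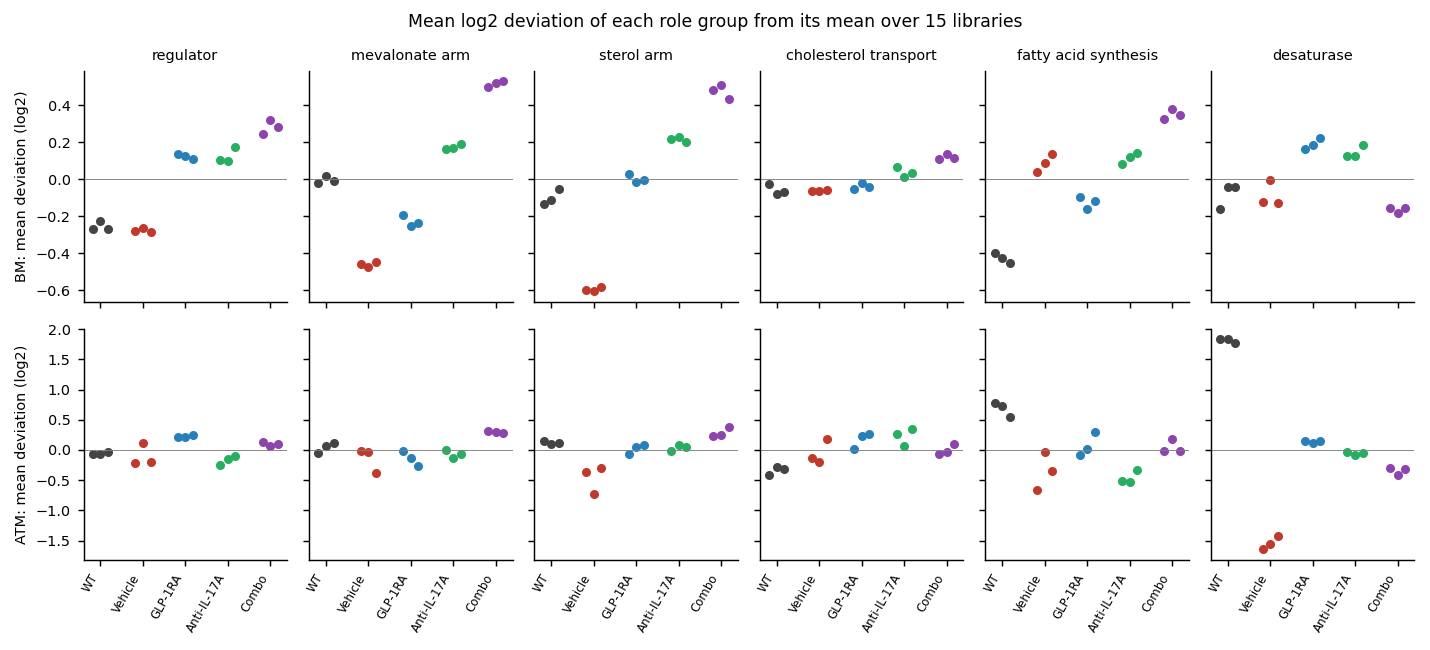
Mean log2 deviation of each role group (columns) from its own mean over the 15 libraries of BM (upper row) and ATMs (lower row), 1 point per library, by group, with the 2 rows on different scales. In BM the Combo points of both synthesis arms lie above all other groups and the Vehicle points below them, and in ATMs the WT points of the desaturases lie above all other groups and the Vehicle points below them.

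In BM, 12 of the 18 cholesterol synthesis enzymes fell in obese vehicle-treated recipients compared with lean recipients. Against Vehicle, 11 of the 18 rose and 3 fell with GLP-1RA, 13 rose and 2 fell with Anti-IL-17A, and 15 rose and none fell with Combo. "Called" stands for a log2 fold change beyond 1 in either direction together with an edgeR quasi-likelihood p that, after Benjamini-Hochberg adjustment over the whole table of the tissue, was below 0.05, and "rose" and "fell" are used for an adjusted p below 0.05 alone. In Vehicle vs WT, 17 members fell (38.8% of all genes did) and 11 rose (37.8%), with 5 called lower (10% of all genes) and 0 called higher (9.44%) by edgeR. At an unadjusted p below 0.05 with the same fold limit the count higher was 0 as well, and DESeq2 called the same 5 members. The median log2 fold change was -0.21 for the members and -0.02 for all genes. The 3 of the 18 enzymes that rose were *Pmvk*, *Mvd* and *Fdps*. The 3 genes that rose among 4 of fatty acid synthesis were *Acaca*, *Fasn* and *Elovl6*.

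Against Vehicle, Combo gave the widest change in BM. There 26 members rose (37.9% of all genes) and 3 fell (35.8%), and 13 were called higher (6.58% of all genes) and 2 lower (11.1%), with a median log2 fold change of 0.78 for the members and 0.02 for all genes. With Anti-IL-17A, 22 rose (36.4%) and 6 fell (36.6%), 9 were called higher (7.65%) and 1 lower (8.46%), with a median of 0.43. With GLP-1RA, 19 rose (36.5%) and 9 fell (36.3%), 8 were called higher (7.60%) and 2 lower (9.08%), with a median of 0.20. All 3 of these comparisons use the same 3 Vehicle libraries, which also stand in Vehicle vs WT, so their values are given side by side and not as independent results.

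Combo was also above WT and above each single agent for most members in BM. In Combo vs WT, 7 members were called higher (4.40% of all genes) and 1 lower (9.93%), with a median log2 fold change of 0.53. In Combo vs GLP-1RA, 2 were called higher (4.59%) and 1 lower (8.57%), with a median of 0.42. In Combo vs Anti-IL-17A, 0 were called higher (1.04%) and 1 lower (4.63%) by edgeR. At an unadjusted p below 0.05, 0 were higher past the fold limit, and DESeq2 called the same 1 member. At an adjusted p below 0.05, 21 rose and 3 fell, with a median of 0.26 (0.02 for all genes). The shares of all genes that rose and fell there were not counted, so the 21 and 3 are not read as a trait of the list. In these 3 comparisons the gene called lower was *Scd1*. The summed level of 10 cell cycle genes differed between the groups, at 2050 to 2070 CPM in WT and 2220 to 2270 in Vehicle. It was 2610 to 2630 with GLP-1RA, 2500 to 2530 with Anti-IL-17A and 2860 to 2870 with Combo. That of 7 B cell markers was 1180 to 1190 CPM in WT and 344 to 362 in Vehicle. It was 111 to 112 with GLP-1RA, 368 to 375 with Anti-IL-17A and 114 to 117 with Combo. The 6 of 9 erythroid markers present summed to 885 to 909 CPM in Vehicle, 1290 to 1390 in WT, 2530 to 2580 with GLP-1RA, 1720 to 1770 with Anti-IL-17A and 1160 to 1190 with Combo. The 7 of 8 neutrophil markers present summed to 102000 to 110000 CPM in WT, 117000 to 119000 in Vehicle, 76300 to 77000 with GLP-1RA, 90700 to 91900 with Anti-IL-17A and 128000 to 130000 with Combo. The part of these lists, and of the macrophage markers, in the BM results was not tested.

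**Figure D2:**
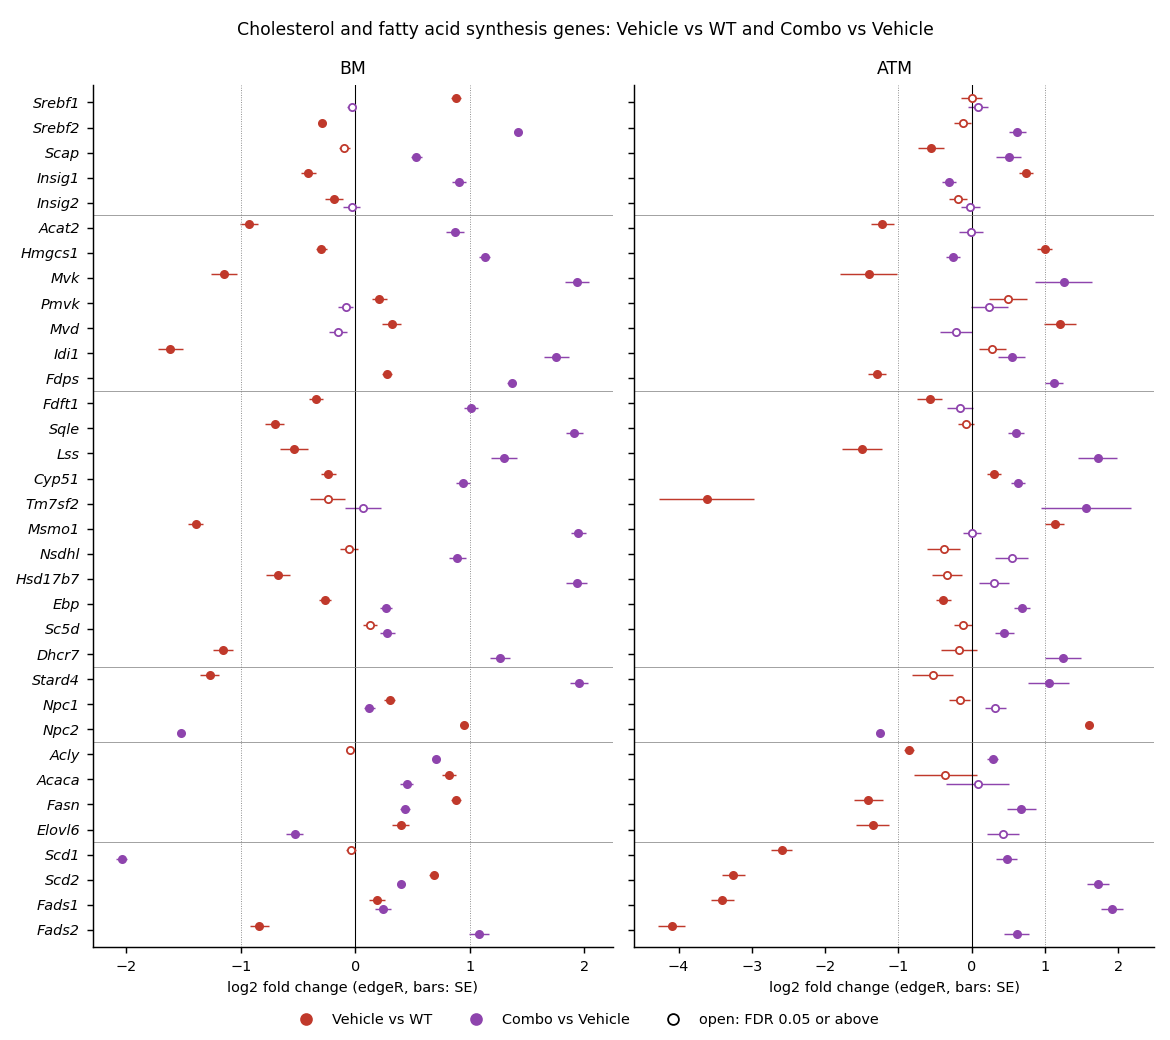
Log2 fold change of each of the 34 genes (rows, grouped by role) in BM (left) and ATMs (right), for Vehicle vs WT in red and Combo vs Vehicle in purple, with standard errors as bars, open points at an adjusted p of 0.05 or above, and dotted lines at -1 and 1. In BM most red points of the 2 synthesis arms lie left of 0 and most purple points right of it, and in ATMs the red points of the 4 desaturases lie between -4.10 and -2.59.

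Among the regulators in BM, *Srebf2* fell in Vehicle vs WT and rose in Combo vs Vehicle, whereas *Srebf1* rose in the former and did not pass the test in the latter. *Srebf2* held 3096, 3162 and 3071 in WT, 2468, 2588 and 2571 in Vehicle, 4494, 4477 and 4377 with GLP-1RA, 5429, 5552 and 5502 with Anti-IL-17A and 6808, 6759 and 6786 with Combo, in normalized counts per library. No 2 groups overlapped, and the order from Vehicle through WT, GLP-1RA and Anti-IL-17A to Combo held for every library. Groups without overlap were common in BM, for 79.4% of members and 75.8% of all genes in Vehicle vs WT. In Combo vs Vehicle they were found for 85.3% and 75.7%. In ATMs these shares were 61.8% and 62.9% in Vehicle vs WT and 67.6% and 52.5% in Combo vs Vehicle. Its log2 fold change (± SE) was -0.29 ± 0.031, adjusted p = 4.91e-11 in Vehicle vs WT and 1.42 ± 0.030, adjusted p = 3.96e-34 in Combo vs Vehicle, and the Combo vs WT call (1.13 ± 0.029) was lost with scaling by total counts alone (0.98).

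*Srebf1* held 1331, 1472 and 1378 in WT, 2465, 2632 and 2568 in Vehicle, 2224, 2212 and 2131 with GLP-1RA, 2003, 2086 and 2136 with Anti-IL-17A and 2432, 2546 and 2521 with Combo. All Ob/Ob groups lay above WT, by 0.88 ± 0.043, adjusted p = 2.29e-21 in Vehicle vs WT, and Combo and Vehicle overlapped (-0.03 ± 0.041, adjusted p = 0.482). *Scap*, the escort of both factors, held 1456, 1713 and 1515 in WT, 1393, 1482 and 1504 in Vehicle, 1631, 1557 and 1617 with GLP-1RA, 1809, 1755 and 1887 with Anti-IL-17A and 2063, 2146 and 2119.9 with Combo. It rose in Combo vs Vehicle by 0.53 ± 0.049, adjusted p = 1.23e-12, and WT and Vehicle overlapped.

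The INSIG genes, whose products retain SCAP, differed from each other. *Insig1*, itself a target of SREBPs, held 725, 677 and 669.7 in WT, 536, 519 and 507 in Vehicle, 1147, 1031 and 1033 with GLP-1RA, 963, 950.2 and 958 with Anti-IL-17A and 958, 1008 and 963 with Combo. It fell in Vehicle vs WT by 0.41 on the log2 scale (adjusted p = 3.1e-07) and rose with GLP-1RA (1.04 ± 0.061, adjusted p = 1.15e-18), where the fold change was 0.99 without GLP-1RA replicate 1, under the limit for a call. *Insig2* held 609, 567 and 610.5 in WT, 557, 513 and 499 in Vehicle, 575, 648 and 634 with GLP-1RA, 512, 491 and 573 with Anti-IL-17A and 483, 543 and 509 with Combo. Its Vehicle vs WT difference was -0.19 ± 0.075, adjusted p = 0.0231, and without WT replicate 1, WT replicate 3, Vehicle replicate 2 or Vehicle replicate 3 the adjusted p was 0.0523 to 0.116. The Combo vs Vehicle value was -0.03 ± 0.077, adjusted p = 0.713.

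Of the mevalonate arm in BM, 4 of 7 genes were called higher in Combo vs Vehicle (*Hmgcs1*, *Mvk*, *Idi1* and *Fdps*) and none was called lower. *Hmgcs1*, the cytosolic HMG-CoA synthase, held 962, 961 and 975 in WT, 812, 772 and 776 in Vehicle, 1252, 1311 and 1275 with GLP-1RA, 1378, 1438 and 1404 with Anti-IL-17A and 1716, 1690.0 and 1758 with Combo. Vehicle was lowest and Combo highest in every library, with -0.30 ± 0.051, adjusted p = 2.22e-06 in Vehicle vs WT and 1.13 ± 0.049, adjusted p = 4.04e-23 in Combo vs Vehicle. *Mvk*, mevalonate kinase, held 249, 265 and 292 in WT, 119, 123 and 120.0 in Vehicle, 173, 156 and 195 with GLP-1RA, 312, 292 and 306 with Anti-IL-17A and 459.9, 463 and 463 with Combo. It fell by 1.15 on the log2 scale in Vehicle vs WT (adjusted p = 4.96e-12) and rose by 1.93 ± 0.11, adjusted p = 1.22e-19 in Combo vs Vehicle, and it was the member with the largest Combo vs GLP-1RA difference of the 34 (1.41 ± 0.10, adjusted p = 2.65e-16).

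*Idi1*, the isomerase that makes dimethylallyl pyrophosphate, held 375, 329 and 337 in WT, 107, 103 and 132 in Vehicle, 377, 354 and 357 with GLP-1RA, 338, 360.5 and 358 with Anti-IL-17A and 396, 409 and 344 with Combo. It had the largest Vehicle vs WT difference of the 34 members in BM (-1.61 ± 0.11, adjusted p = 1.65e-16). All 3 treated groups overlapped with WT and with each other, and Vehicle stood alone below them. The rise against Vehicle was 1.67 ± 0.11, adjusted p = 4.61e-17 with GLP-1RA, 1.63 ± 0.11, adjusted p = 1.13e-16 with Anti-IL-17A and 1.75 ± 0.11, adjusted p = 1.05e-17 with Combo.

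*Fdps*, which makes farnesyl pyrophosphate, behaved otherwise, with 1311, 1441 and 1336 in WT, 1659, 1676 and 1617 in Vehicle, 1667, 1685 and 1581 with GLP-1RA, 2409.7, 2309.5 and 2287 with Anti-IL-17A and 4147, 4205 and 4401 with Combo. Vehicle was above WT (0.28 ± 0.044, adjusted p = 4.27e-07), GLP-1RA and Vehicle overlapped (-0.01 ± 0.043, adjusted p = 0.919), and Combo was far above all other groups, by 1.36 ± 0.041, adjusted p = 9.98e-29 against Vehicle and 1.64 ± 0.041, adjusted p = 3.13e-31 against WT. Of its annotated exon bases, 26.7% are shared with *Gm43738* on the same strand, and reads there were counted for both genes. Since strand was ignored, the same limit holds for *Fdft1* (18.3% shared with *Ctsb*), *Scap* (13.2%), *Hmgcs1* (12.1%), *Tm7sf2* (12.1%, with *Vps51*), *Idi1* (9.22%) and *Npc1* (5.31%). *Acat2*, the cytosolic acetoacetyl-CoA thiolase, fell by 0.93 on the log2 scale in Vehicle vs WT (adjusted p = 7.85e-14) and rose by 0.87 ± 0.079, adjusted p = 8.13e-13 in Combo vs Vehicle. *Pmvk* and *Mvd*, the kinase and the decarboxylase that follow *Mvk*, went the other way with GLP-1RA, at -0.85 ± 0.069, adjusted p = 3.33e-14 and -0.93 ± 0.083, adjusted p = 5.48e-13, and neither passed the test in Combo vs Vehicle (-0.08 ± 0.066, adjusted p = 0.26 and -0.15 ± 0.079, adjusted p = 0.0846). The rise of *Pmvk* in Vehicle vs WT (0.21 ± 0.066) had an adjusted p of 0.0715 without Vehicle replicate 2.

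Of the 11 genes of the sterol arm in BM, 8 fell and none rose in Vehicle vs WT, and 10 rose and none fell in Combo vs Vehicle, of which 6 were called. *Sqle*, squalene epoxidase, held 463, 447 and 413 in WT, 262, 268 and 284 in Vehicle, 735, 642 and 693 with GLP-1RA, 783, 788 and 884 with Anti-IL-17A and 975, 1021 and 1067 with Combo. It fell by 0.70 on the log2 scale in Vehicle vs WT (adjusted p = 6.3e-10) and rose by 1.91 ± 0.076, adjusted p = 2.29e-24 in Combo vs Vehicle, and every Combo library was above every other. *Msmo1*, the sterol C4-methyl oxidase, held 1339, 1136 and 1226 in WT, 514, 469 and 427 in Vehicle, 1017, 1123 and 1066 with GLP-1RA, 1570.3, 1446 and 1529.8 with Anti-IL-17A and 1806, 1829 and 1806 with Combo. It fell by 1.39 in Vehicle vs WT (adjusted p = 7.95e-22) and rose by 1.95 ± 0.063, adjusted p = 3.15e-27 in Combo vs Vehicle.

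*Hsd17b7*, the 3-keto-sterol reductase of the same demethylation complex, held 243, 259.9 and 265 in WT, 167, 152 and 162 in Vehicle, 492, 436 and 455 with GLP-1RA, 551, 572 and 511 with Anti-IL-17A and 599, 667 and 569 with Combo. It fell by 0.67 in Vehicle vs WT (adjusted p = 2.18e-07), and with each treatment it stood above both WT and Vehicle, by 1.93 ± 0.093, adjusted p = 1.72e-21 in Combo vs Vehicle. *Dhcr7*, which reduces 7-dehydrocholesterol in the last step of one branch, held 599, 649.7 and 557 in WT, 290.3, 265 and 254 in Vehicle, 432, 409 and 522 with GLP-1RA, 609, 602 and 676 with Anti-IL-17A and 628, 650.2 and 664 with Combo. Vehicle was lowest (-1.16 ± 0.088, adjusted p = 4.98e-15 against WT), and Combo and WT did not differ by the test (0.10 ± 0.078, adjusted p = 0.231).

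*Cyp51*, the lanosterol demethylase, held 629, 584 and 671 in WT, 506, 537 and 557 in Vehicle, 623, 589.9 and 617 with GLP-1RA, 824, 849 and 855 with Anti-IL-17A and 1059, 1032 and 975 with Combo. Its rise in Combo vs Vehicle was 0.94 ± 0.064, adjusted p = 1.32e-16, and its fall in Vehicle vs WT was -0.24 ± 0.067, adjusted p = 0.00171. *Lss*, which closes the sterol rings, rose by 1.30 ± 0.12, adjusted p = 4.57e-13 in Combo vs Vehicle and by 1.04 ± 0.12, adjusted p = 2.54e-10 with GLP-1RA, the latter under the fold limit without Vehicle replicate 2 (0.96) or GLP-1RA replicate 1 (0.93). *Fdft1*, squalene synthase, rose by 1.01 ± 0.061, adjusted p = 2.78e-18 in Combo vs Vehicle, and the value was 0.95 to 0.996 without Combo replicate 2, Vehicle replicate 2 or Vehicle replicate 3, so that this call lay on the limit.

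*Nsdhl*, *Ebp* and *Sc5d* rose in Combo vs Vehicle without a call, by 0.89 ± 0.074, adjusted p = 7.93e-14, 0.26 ± 0.052, adjusted p = 2.27e-05 and 0.28 ± 0.063, adjusted p = 0.000147. *Nsdhl* and *Ebp* are on the X chromosome, and the X-linked RNA *Xist* was at 182 to 193 CPM in Vehicle BM, 101 to 105 in Combo, at most 0.0746 in WT, at most 0.162 with GLP-1RA and 2.54 to 3.26 with Anti-IL-17A. The Y-linked *Ddx3y* was at 42.8 to 48.3 CPM in WT, 19.9 to 21.3 in Vehicle and 4.22 to 5.09 with Combo, so that all 3 Vehicle and all 3 Combo libraries held both transcripts at like levels. The labels give both sexes without naming the sex of a library. These levels differed between the BM groups compared here, and the part of sex in the values of either gene, or of any other member, was not tested. In ATMs the 5 sex-linked genes also differed, summing to 182 to 194 CPM in WT and 52.7 to 68.2 in Vehicle. With GLP-1RA the ATM sum was 228 to 252, with Anti-IL-17A 159 to 168 and with Combo 52.3 to 54.7. The sum holds *Xist* together with Y-linked genes, so a like sum does not show a like sex makeup. The part of sex in the ATM values was not tested either. *Tm7sf2*, a sterol C14 reductase, was the member with the lowest counts and passed the test in neither comparison (-0.24 ± 0.15, adjusted p = 0.146 in Vehicle vs WT and 0.07 ± 0.16, adjusted p = 0.717 in Combo vs Vehicle).

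**Figure D3:**
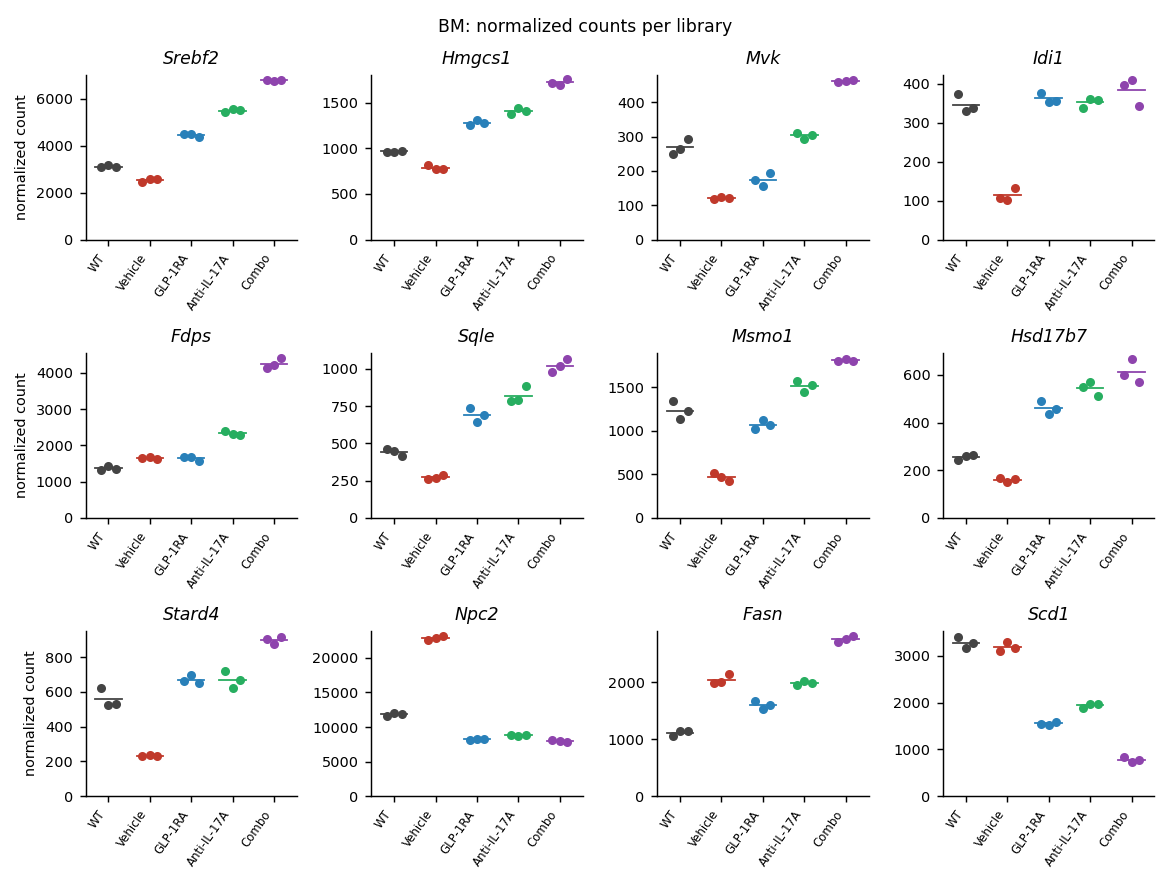
Normalized counts of 12 of the 34 genes in the BM libraries, 1 point per library and a bar at the mean of 3, by group, each axis from 0. Vehicle is the lowest group for *Srebf2*, *Hmgcs1*, *Mvk*, *Idi1*, *Sqle*, *Msmo1*, *Hsd17b7* and *Stard4*, whereas *Npc2* is highest there and *Scd1* is lowest with Combo.

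Cholesterol transport split in BM between *Stard4*, which carries cholesterol through the cytosol and is a target of SREBP2, and the lysosomal exporters *Npc1* and *Npc2*. *Stard4* held 622, 526 and 529.7 in WT, 232, 236 and 228 in Vehicle, 661, 698 and 651 with GLP-1RA, 719, 621 and 670.2 with Anti-IL-17A and 903, 877 and 916 with Combo. It fell by 1.27 on the log2 scale in Vehicle vs WT (adjusted p = 3.9e-17) and rose by 1.95 ± 0.080, adjusted p = 5.98e-24 in Combo vs Vehicle. *Npc2*, the soluble partner that hands cholesterol to NPC1, held 11557, 12019.7 and 11941 in WT, 22645, 22918 and 23147 in Vehicle, 8177, 8200.2 and 8241 with GLP-1RA, 8889.9, 8665 and 8794 with Anti-IL-17A and 8135, 7914 and 7884 with Combo. Vehicle was the highest group, by 0.95 ± 0.024, adjusted p = 1.19e-31 against WT, and every treated library was below every WT library, with -1.52 ± 0.024, adjusted p = 1.29e-38 in Combo vs Vehicle and -0.57 ± 0.024, adjusted p = 1.9e-23 in Combo vs WT.

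*Npc1* held 1099, 1128 and 1147 in WT, 1388, 1358 and 1402 in Vehicle, 1390.3, 1411 and 1437 with GLP-1RA, 1503, 1597 and 1526 with Anti-IL-17A and 1428, 1604 and 1476 with Combo. It rose in Vehicle vs WT by 0.30 ± 0.049, adjusted p = 8.52e-07. The Combo vs Vehicle difference (0.12 ± 0.048, adjusted p = 0.0237) did not pass without Combo replicate 2, Vehicle replicate 2 or Vehicle replicate 3, where the adjusted p was 0.0769 to 0.219.

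Fatty acid synthesis genes in BM did not follow the cholesterol genes in Vehicle vs WT. *Fasn*, fatty acid synthase, held 1061, 1143 and 1147 in WT, 1989, 2012 and 2143 in Vehicle, 1664, 1523 and 1594 with GLP-1RA, 1951, 2028 and 1990.5 with Anti-IL-17A and 2716, 2757 and 2817 with Combo. It rose in Vehicle vs WT (0.88 ± 0.045, adjusted p = 1.73e-20) and again in Combo vs Vehicle (0.43 ± 0.042, adjusted p = 4.92e-12), and no library of another group reached those of Combo. *Acaca*, acetyl-CoA carboxylase, held 654, 619 and 579 in WT, 992, 1132 and 1156 in Vehicle, 930.0, 971 and 963 with GLP-1RA, 1002, 1089.6 and 1101 with Anti-IL-17A and 1484, 1454 and 1535 with Combo. It rose by 0.82 ± 0.061, adjusted p = 2.48e-15 in Vehicle vs WT and by 0.45 ± 0.057, adjusted p = 3.93e-09 in Combo vs Vehicle. For both genes Combo vs WT was called, at 1.31 ± 0.044 and 1.27 ± 0.059.

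*Acly*, the citrate lyase that supplies acetyl-CoA to both pathways, held 6953, 7293 and 6888 in WT, 6624, 6837 and 6982 in Vehicle, 7437, 7435 and 7486 with GLP-1RA, 8839, 8648 and 8827 with Anti-IL-17A and 10974, 11096 and 11157 with Combo. WT and Vehicle overlapped (-0.05 ± 0.026, adjusted p = 0.0966), and Combo was above every other group (0.70 ± 0.026, adjusted p = 2.87e-25 against Vehicle). *Elovl6*, which extends C16 fatty acids, held 538, 471 and 492 in WT, 676, 640.0 and 661 in Vehicle, 520.3, 458 and 492 with GLP-1RA, 570.5, 575 and 602 with Anti-IL-17A and 437, 504 and 429 with Combo. Vehicle was the highest group, by 0.39 ± 0.074, adjusted p = 8.82e-06 against WT, and Combo fell below it by 0.53 on the log2 scale (adjusted p = 5.65e-08).

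The desaturases of BM moved apart from each other. *Scd1*, a stearoyl-CoA desaturase, held 3398, 3162 and 3267 in WT, 3113, 3286 and 3172 in Vehicle, 1549, 1529 and 1579 with GLP-1RA, 1893, 1961 and 1966 with Anti-IL-17A and 835, 721 and 768 with Combo. WT and Vehicle overlapped (-0.04 ± 0.040, adjusted p = 0.381). It fell with every treatment, by -1.04 ± 0.042, adjusted p = 4.55e-24 with GLP-1RA, -0.72 ± 0.041, adjusted p = 6.75e-19 with Anti-IL-17A and -2.04 ± 0.046, adjusted p = 5.15e-33 with Combo, which was the largest fall of a member against Vehicle in BM. With scaling by total counts alone the GLP-1RA value was -0.81, under the fold limit. Combo was also below GLP-1RA (-1.001, adjusted p = 2.07e-21), a call on the fold limit that was lost without GLP-1RA replicate 3 (-0.99), Combo replicate 2 (-0.95) or Combo replicate 3 (-0.99).

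*Scd2*, its paralog, held 1957, 2063 and 2026 in WT, 3137, 3353 and 3213 in Vehicle, 3096, 3087 and 3158 with GLP-1RA, 3317, 3505 and 3503 with Anti-IL-17A and 4187, 4277 and 4298 with Combo. It rose by 0.68 ± 0.036, adjusted p = 3.22e-20 in Vehicle vs WT and by 0.40 ± 0.034, adjusted p = 2.04e-13 in Combo vs Vehicle, opposite to *Scd1*, and its Combo vs WT call (1.08 ± 0.035) was lost with scaling by total counts alone (0.93). *Fads2*, the delta-6 desaturase of polyunsaturated fatty acids, held 426, 477 and 480.2 in WT, 239, 278 and 254 in Vehicle, 637, 709 and 709 with GLP-1RA, 581, 560.1 and 632 with Anti-IL-17A and 522, 563 and 549 with Combo. It fell by 0.84 in Vehicle vs WT (adjusted p = 1.94e-11) and rose by 1.08 ± 0.085, adjusted p = 1.02e-14 in Combo vs Vehicle. *Fads1*, the delta-5 desaturase, held 577, 727 and 714 in WT, 776, 823 and 692 in Vehicle, 1314, 1282 and 1337 with GLP-1RA, 987, 939 and 982 with Anti-IL-17A and 906, 891 and 912 with Combo. It was highest with GLP-1RA (0.78 ± 0.065, adjusted p = 1.22e-13 against Vehicle). Its rise in Vehicle vs WT (0.19 ± 0.070, adjusted p = 0.0134) did not pass without WT replicate 1 (adjusted p = 0.233) or Vehicle replicate 2 (adjusted p = 0.121). Nor did it pass with scaling by total counts alone (adjusted p = 0.406) or in a fit of the 2 groups alone (adjusted p = 0.0726). Its Combo vs Vehicle rise (0.24 ± 0.068) did not pass without Vehicle replicate 3 (adjusted p = 0.106).

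In ATMs, all 4 desaturases fell by more than 2.5 on the log2 scale in obese vehicle-treated recipients compared with lean recipients, and of the other members *Tm7sf2* alone fell as far. In Vehicle vs WT, 15 members fell (32.6% of all genes) and 6 rose (24.3%), 11 were called lower (22.9%) and 3 higher (12.5%), and the median log2 fold change was -0.37 for the members and -0.21 for all genes. The 11 called lower were the 4 desaturases, *Fasn*, *Elovl6*, *Acat2*, *Mvk*, *Fdps*, *Lss* and *Tm7sf2*, and the 3 called higher were *Mvd*, *Msmo1* and *Npc2*. Of the 18 cholesterol synthesis enzymes 7 fell and 4 rose, whereas all 4 desaturases and 3 of 4 fatty acid synthesis genes fell.

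Against Vehicle, each treatment raised the 4 desaturases in ATMs. With GLP-1RA, 16 members rose (31.8% of all genes) and 4 fell (22%), 7 were called higher (20.8%) and 0 lower (10.9%), with a median log2 fold change of 0.36 against 0.19 for all genes. The count called lower was also 0 at an unadjusted p below 0.05 with the same fold limit, and DESeq2 called 8 members in all, 7 of them shared with edgeR. With Anti-IL-17A, 11 rose (33.1%) and 5 fell (25.0%), 7 were called higher (22.4%) and 1 lower (13.1%), with a median of 0.06 against 0.17 for all genes. With Combo, 19 rose (25.0%) and 3 fell (23.7%), 8 were called higher (14.1%) and 1 lower (12.2%), with a median of 0.49 against 0 for all genes. The counts called with GLP-1RA and Anti-IL-17A are close to or below those of all genes.

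In Combo vs WT ATMs, 2 members, *Msmo1* and *Dhcr7*, were called higher (7.08% of all genes) and 6 lower (14.5%), with a median of 0.12. In Combo vs GLP-1RA, 1 was called higher (5.38%) and 1 lower (13.4%). In Combo vs Anti-IL-17A, 0 were called higher (3.73%) and 0 lower (10.5%) by edgeR, and 0 by DESeq2. The count was also 0 at an unadjusted p below 0.05 with the same fold limit. At an adjusted p below 0.05, 12 rose and 4 fell, and the shares of all genes that did so were not counted. The neutrophil marker sum given above was high in Vehicle and Combo and low in the other 3 groups, the 10 macrophage markers summed to 4540 to 4790 CPM in WT, 2580 to 2760 in Vehicle, 10800 to 11200 with GLP-1RA, 15900 to 16100 with Anti-IL-17A and 11100 with Combo, and the part of these in the ATM results was not tested. The same holds for the 10 cell cycle genes, at 67.9 to 76.9 CPM in WT, 37.7 to 42.6 in Vehicle and 109 to 117 with GLP-1RA. They were at 215 to 246 with Anti-IL-17A and 462 to 469 with Combo. It holds as well for the 5 of 6 T cell markers present, at 67.6 to 78.8 CPM in Vehicle and 602 to 620 with Combo. The 6 of 9 erythroid markers present summed to 3920 to 4140 CPM in WT, 6750 to 6830 in Vehicle and 1500 to 1610 with GLP-1RA. With Anti-IL-17A they summed to 1210 to 1230 and with Combo to 5480 to 5620, and their part was not tested either.

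The desaturase genes lie in pairs on chromosome 19 (GRCm38, GENCODE M21), *Scd2* at chr19:44293674-44306864 and *Scd1* at chr19:44394455-44407879, *Fads2* at chr19:10062765-10101746 and *Fads1* at chr19:10182888-10196877. *Scd1* held 19792, 20349.8 and 19617 in WT, 3052, 3797 and 3068 in Vehicle, 7995, 7318 and 8347 with GLP-1RA, 3902, 6459 and 5560.0 with Anti-IL-17A and 4164, 4982 and 4634 with Combo. Every WT library was above every other, and the log2 fold change was -2.59 ± 0.14, adjusted p = 3.72e-10 in Vehicle vs WT, 1.25 ± 0.14, adjusted p = 1.57e-06 with GLP-1RA, 0.68 ± 0.14, adjusted p = 0.000585 with Anti-IL-17A and 0.47 ± 0.14, adjusted p = 0.01 with Combo against Vehicle. *Scd2* held 5355, 5323 and 4692 in WT, 493, 671 and 451 in Vehicle, 2297, 2024 and 2518 with GLP-1RA, 2652, 2321 and 2536 with Anti-IL-17A and 1952, 1479 and 1891 with Combo. It fell by 3.25 in Vehicle vs WT (adjusted p = 3.91e-11) and rose by 2.08 ± 0.15, adjusted p = 7.71e-09, 2.22 ± 0.15, adjusted p = 3.23e-09 and 1.72 ± 0.15, adjusted p = 7.58e-08 with GLP-1RA, Anti-IL-17A and Combo.

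*Fads1* held 8707, 8149 and 8163 in WT, 788, 553 and 1027 in Vehicle, 3755, 3693 and 3418 with GLP-1RA, 3744, 3256 and 3485 with Anti-IL-17A and 2982, 3079.9 and 2846 with Combo. WT lay above all treated groups and Vehicle below them, with -3.40 ± 0.15, adjusted p = 2.67e-11 in Vehicle vs WT and 1.91 ± 0.15, adjusted p = 2.48e-08 in Combo vs Vehicle. *Fads2* held 5855, 6072 and 6034 in WT, 291, 317 and 443 in Vehicle, 711, 819.6 and 706 with GLP-1RA, 795, 528 and 585 with Anti-IL-17A and 586, 458 and 560.4 with Combo. It had the largest Vehicle vs WT difference of all members (-4.10 ± 0.18, adjusted p = 2.34e-11), and the 3 treatments raised it by 1.09 ± 0.17, 0.86 ± 0.17 and 0.61 ± 0.17, which left Combo far below WT (-3.48 ± 0.18, adjusted p = 2.47e-10). The GLP-1RA value was 0.97 without Vehicle replicate 1, under the fold limit.

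Adipocytes express these genes strongly, and 12 of 13 adipocyte markers were present in ATMs, with a summed level of 293 to 305 CPM in WT, 135 to 150 in Vehicle, 98.0 to 106 with GLP-1RA, 151 to 171 with Anti-IL-17A and 172 to 190 with Combo. *Adipoq*, the adiponectin gene, was at 25.6 to 27.8 CPM in WT and 10.8 to 12.1 in Vehicle, *Cfd* at 86.2 to 93.1 and 1.02 to 5.05, and *Lep* at 3.62 to 10.5 and 22.1 to 44.8. None of the 12 was at 0 in a WT or Vehicle library, and *Cidea* was at 0 in at least 1 library with GLP-1RA and with Anti-IL-17A. Both the marker sum and the 4 desaturases were highest in WT. Against Vehicle, the sum was lower with GLP-1RA and higher with Anti-IL-17A and Combo, while the 4 desaturases were higher with each. The part of adipocyte or epididymal RNA in the Vehicle vs WT differences was not tested.

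**Figure D4:**
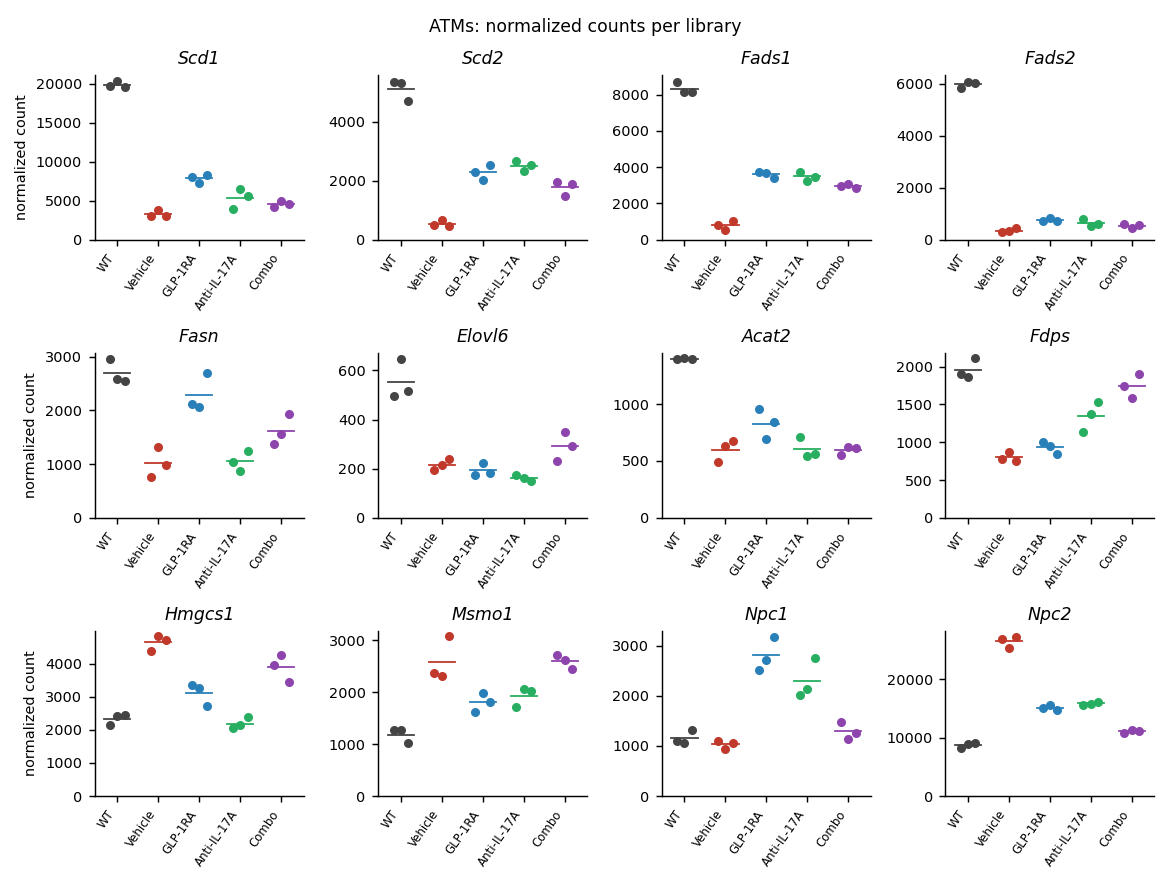
Normalized counts of 12 of the 34 genes in the ATM libraries, 1 point per library and a bar at the mean of 3, by group, each axis from 0. WT is above all other groups for *Scd1*, *Scd2*, *Fads1*, *Fads2*, *Elovl6* and *Acat2*, whereas *Npc2* and *Hmgcs1* are highest in Vehicle.

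Of fatty acid synthesis in ATMs, *Fasn* held 2964, 2585 and 2552 in WT, 755, 1319.5 and 976 in Vehicle, 2124, 2063 and 2689 with GLP-1RA, 1035, 872 and 1247 with Anti-IL-17A and 1383, 1569 and 1927 with Combo. It fell by 1.41 on the log2 scale in Vehicle vs WT (adjusted p = 1.41e-05) and rose with GLP-1RA (1.17 ± 0.19, adjusted p = 9.2e-05, and 0.9996 without Vehicle replicate 1, just under the fold limit) and with Combo (0.68 ± 0.19, adjusted p = 0.00807), while Anti-IL-17A gave 0.05 ± 0.19, adjusted p = 0.849. *Elovl6* held 497, 647 and 518 in WT, 196, 216 and 238 in Vehicle, 176, 222 and 184 with GLP-1RA, 175, 162 and 152 with Anti-IL-17A and 232, 350.3 and 292 with Combo. It fell by 1.35 in Vehicle vs WT (adjusted p = 8.75e-05), and no treatment moved it past the test against Vehicle (adjusted p = 0.574, 0.125 and 0.124).

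*Acly* held 11094, 13328 and 11804 in WT, 7394, 6448 and 6159 in Vehicle, 8916, 9256 and 8775 with GLP-1RA, 6632, 7008 and 6787 with Anti-IL-17A and 8141, 8177 and 8024 with Combo. It fell by 0.86 in Vehicle vs WT (adjusted p = 4.1e-08) and rose with GLP-1RA (0.43 ± 0.070, adjusted p = 8.61e-05) and Combo (0.28 ± 0.070, adjusted p = 0.00325). *Acaca* held 507, 321 and 272 in WT, 135, 474 and 247 in Vehicle, 229.9, 230.3 and 493 with GLP-1RA, 191, 222 and 295 with Anti-IL-17A and 353, 348 and 203 with Combo. All groups overlapped with each other, and no comparison passed the test (Vehicle vs WT -0.36 ± 0.43, adjusted p = 0.493).

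Within the cholesterol pathway of ATMs, members went in opposite directions in Vehicle vs WT. *Hmgcs1* held 2151, 2408 and 2435 in WT, 4379, 4848 and 4722 in Vehicle, 3341, 3273 and 2714 with GLP-1RA, 2049, 2139 and 2385 with Anti-IL-17A and 3969.6, 4271 and 3439 with Combo. Every Vehicle library was above every other, with 1.00 ± 0.10, adjusted p = 4.57e-07 against WT and -1.09 ± 0.10, adjusted p = 1.62e-07 in Anti-IL-17A vs Vehicle. The Combo vs Vehicle value (-0.26 ± 0.10, adjusted p = 0.0426) was 0.16 when libraries were scaled by total counts alone and did not pass without Vehicle replicate 2, Vehicle replicate 3, Combo replicate 1 or Combo replicate 3 (adjusted p = 0.0714 to 0.188). *Msmo1* held 1265, 1261 and 1013 in WT, 2368, 2299.9 and 3073 in Vehicle, 1621, 1977 and 1812 with GLP-1RA, 1709, 2067 and 2016 with Anti-IL-17A and 2707, 2619 and 2448 with Combo. It rose by 1.13 ± 0.13, adjusted p = 2.03e-06 in Vehicle vs WT, or by 0.98 without Vehicle replicate 3 and 0.69 when scaled by total counts alone, both under the fold limit, and Combo overlapped with Vehicle (0.01 ± 0.13, adjusted p = 1). *Mvd* rose as well, by 1.20 ± 0.22, adjusted p = 0.000274, or by 0.77 when scaled by total counts alone, so that 2 of the 3 calls higher were lost under that scaling. That scaling also took the Anti-IL-17A vs Vehicle value of *Hmgcs1* to -0.74, under the fold limit.

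*Acat2*, *Fdps* and *Lss* went the other way. *Acat2* held 1392, 1405 and 1392 in WT, 494, 634 and 674 in Vehicle, 956, 689.6 and 839 with GLP-1RA, 707, 543 and 565 with Anti-IL-17A and 556, 621 and 612 with Combo, and fell by 1.22 in Vehicle vs WT (adjusted p = 8.23e-06). Combo and Vehicle overlapped (-0.01 ± 0.16, adjusted p = 1). *Fdps* held 1904, 1862 and 2114 in WT, 783, 870.4 and 747 in Vehicle, 997, 952 and 843 with GLP-1RA, 1133, 1373 and 1537 with Anti-IL-17A and 1739.9, 1577 and 1895 with Combo. It fell by 1.29 in Vehicle vs WT (adjusted p = 3.51e-07) and rose by 1.12 ± 0.13, adjusted p = 2.12e-06 in Combo vs Vehicle, where it overlapped with WT (Combo vs WT -0.17 ± 0.12, adjusted p = 0.286).

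*Lss* fell by 1.50 in Vehicle vs WT (adjusted p = 0.000212) and rose with all treatments, by 1.76 ± 0.27, adjusted p = 5.44e-05 with GLP-1RA, 1.30 ± 0.27, adjusted p = 0.000722 with Anti-IL-17A (0.9955 without Anti-IL-17A replicate 3, under the fold limit) and 1.72 ± 0.27, adjusted p = 7.6e-05 with Combo. *Mvk* was called lower in Vehicle vs WT (-1.41 ± 0.39, adjusted p = 0.00576), but Vehicle replicate 3 held 44.9 normalized counts beside 192 and 189 in the others, and without it the value was -0.99. Without that library *Mvk* was also under the fold limit with Anti-IL-17A (0.955) and with Combo (0.83), and in fits of the 2 groups alone the adjusted p was 0.0516 and 0.0652. *Tm7sf2* held 256, 319 and 326 in WT, 40.1, 2.94 and 29.9 in Vehicle, 43.8, 75.9 and 79.4 with GLP-1RA, 56.1, 93.4 and 91 with Anti-IL-17A and 53.6, 65.9 and 96.7 with Combo. The lowest Vehicle library had 2 counts, so the value of -3.61 ± 0.65, adjusted p = 0.000205 in Vehicle vs WT rests on few reads, and the Combo vs Vehicle call (1.56 ± 0.61, adjusted p = 0.0469) was lost without any one of Vehicle replicates 2 and 3 and Combo replicates 2 and 3 (adjusted p = 0.0612 to 0.137). The Anti-IL-17A vs Vehicle call (1.71 ± 0.61) was lost without Anti-IL-17A replicate 2 or 3 (adjusted p = 0.0618 and 0.0594). In fits of the 2 groups alone neither call held (adjusted p = 0.208 with Combo and 0.143 with Anti-IL-17A).

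*Cyp51*, *Sqle* and *Dhcr7* rose with Combo in ATMs. *Cyp51* held 1689, 1857 and 1620.2 in WT, 2099.9, 2411 and 1854 in Vehicle, 2277, 2418 and 2077 with GLP-1RA, 2094, 2003 and 1961 with Anti-IL-17A and 3199, 3233 and 3396 with Combo. Combo was above every other library, by 0.63 ± 0.10, adjusted p = 5.46e-05 against Vehicle, and the Vehicle vs WT value (0.30 ± 0.10, adjusted p = 0.0145) was -0.14 when libraries were scaled by total counts alone and did not pass without WT replicate 3 (adjusted p = 0.0592) or Vehicle replicate 2 (adjusted p = 0.0822). *Sqle* held 1127, 1049.8 and 1132 in WT, 1046, 1042 and 1045 in Vehicle, 1549, 1264 and 1315 with GLP-1RA, 1112, 918 and 914 with Anti-IL-17A and 1589.6, 1559 and 1595 with Combo. It rose with Combo (0.60 ± 0.11, adjusted p = 0.000274) and GLP-1RA (0.40 ± 0.11, adjusted p = 0.00603). *Dhcr7* held 563, 509 and 372 in WT, 605, 292 and 380.2 in Vehicle, 604, 532 and 713 with GLP-1RA, 786, 1243 and 866 with Anti-IL-17A and 939, 1065 and 1026 with Combo. It rose with Combo (1.24 ± 0.25, adjusted p = 0.00071) and with Anti-IL-17A (1.18 ± 0.25, adjusted p = 0.000903), the latter at 0.97 without Vehicle replicate 2 and 0.96 without Anti-IL-17A replicate 2. It was called higher in Combo vs WT (1.07 ± 0.25), or 0.91 without WT replicate 3.

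*Idi1* held 273, 326 and 253 in WT, 341, 367 and 326 in Vehicle, 319, 329 and 303 with GLP-1RA, 266, 256 and 308 with Anti-IL-17A and 506, 554 and 447 with Combo. Combo was above the other groups (0.54 ± 0.18, adjusted p = 0.0216 against Vehicle), with an adjusted p of 0.0511 to 0.0826 without Vehicle replicate 3, Combo replicate 1 or Combo replicate 2. *Sc5d* and *Ebp* rose with Combo by 0.44 ± 0.12, adjusted p = 0.00796 and 0.69 ± 0.10, adjusted p = 4.25e-05. *Fdft1*, *Nsdhl*, *Hsd17b7* and *Pmvk* did not pass in Combo vs Vehicle (adjusted p = 0.479, 0.0636, 0.239 and 0.479).

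No regulator was called in any of the 7 comparisons of ATMs. *Srebf2* held 2693, 3287 and 2715 in WT, 2226, 3044 and 2711 in Vehicle, 3406, 3571 and 3239 with GLP-1RA, 2276, 2794 and 2781 with Anti-IL-17A and 4014, 3918 and 4352 with Combo. WT and Vehicle overlapped (-0.12 ± 0.12, adjusted p = 0.375) and Combo was above both (0.62 ± 0.12, adjusted p = 0.000321 against Vehicle). *Srebf1* held 1784, 1723 and 1741 in WT, 1539, 2184 and 1518 in Vehicle, 2106, 2065 and 2523 with GLP-1RA, 1775, 1902 and 1863 with Anti-IL-17A and 2183, 1704 and 1682 with Combo, and its only difference from Vehicle past the test was with GLP-1RA (0.35 ± 0.14, adjusted p = 0.0429). *Insig1* held 2270.0, 2165 and 2568 in WT, 4542, 3727 and 3426 in Vehicle, 3592, 3811 and 3395 with GLP-1RA, 2529, 2777 and 2436 with Anti-IL-17A and 3038, 3326 and 3076 with Combo. It rose in Vehicle vs WT by 0.74 ± 0.10, adjusted p = 1.36e-05 and fell with Anti-IL-17A by 0.60 (adjusted p = 0.00011).

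*Scap* held 2277, 2207 and 2545 in WT, 1349, 2227 and 1205 in Vehicle, 2074, 2058 and 2342 with GLP-1RA, 1988, 1813 and 1942 with Anti-IL-17A and 2167, 2078 and 2522 with Combo. It fell in Vehicle vs WT by 0.56 (adjusted p = 0.0116), and Vehicle overlapped with every other group. *Insig2* held 1984, 1785 and 1738 in WT, 1376, 1675 and 1783 in Vehicle, 2345, 2231 and 2189 with GLP-1RA, 1248, 1382 and 1731 with Anti-IL-17A and 1624, 1669.5 and 1476 with Combo, and rose with GLP-1RA (0.49 ± 0.12, adjusted p = 0.0038). The Combo vs Vehicle values of *Insig1* (-0.31 ± 0.10, adjusted p = 0.0182, and 0.11 when scaled by total counts alone) and *Scap* (0.50 ± 0.17, adjusted p = 0.024) did not pass without Vehicle replicate 1 (adjusted p = 0.116 and 0.0931) or Combo replicate 3 (adjusted p = 0.0541 and 0.0924), and without Combo replicate 1 for *Insig1* (0.0605) or Vehicle replicate 3 for *Scap* (0.105).

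Of cholesterol transport, *Npc2* was highest in Vehicle in ATMs, as in BM, but the treated groups lay above WT here and below it in BM. It held 8146, 8850.0 and 9104 in WT, 26801, 25301 and 27289.9 in Vehicle, 15006, 15651 and 14694 with GLP-1RA, 15568, 15805 and 16168 with Anti-IL-17A and 10758, 11344 and 11151 with Combo. It rose by 1.60 ± 0.047, adjusted p = 1.1e-13 in Vehicle vs WT and fell by 1.26 on the log2 scale with Combo (adjusted p = 2.61e-12), by 0.81 with GLP-1RA (adjusted p = 5.36e-10) and by 0.74 with Anti-IL-17A (adjusted p = 1.39e-09). The Combo call was lost when libraries were scaled by total counts alone (-0.84), and Combo vs WT was 0.35 ± 0.046, adjusted p = 1.55e-05. *Npc1* held 1091, 1056 and 1319 in WT, 1095, 932 and 1066 in Vehicle, 2523, 2720.3 and 3184 with GLP-1RA, 2018, 2136 and 2756 with Anti-IL-17A and 1482, 1133 and 1254 with Combo. It rose with GLP-1RA (1.45 ± 0.15, adjusted p = 5.37e-07) and Anti-IL-17A (1.16 ± 0.14, adjusted p = 5.45e-06) but not past the test with Combo (0.32 ± 0.14, adjusted p = 0.078), and Combo was below GLP-1RA (-1.12 ± 0.14, adjusted p = 1.34e-05, or -0.92 when scaled by total counts alone, under the fold limit).

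*Stard4* held 444, 543 and 404 in WT, 236, 257 and 470.0 in Vehicle, 251, 352 and 341 with GLP-1RA, 508, 316 and 426 with Anti-IL-17A and 503, 674 and 814 with Combo. It rose by 1.05 ± 0.28, adjusted p = 0.00609 in Combo vs Vehicle and by 1.08 ± 0.28, adjusted p = 0.0063 in Combo vs GLP-1RA. The first was 0.87, 0.91 and 0.88 without Vehicle replicate 1, Vehicle replicate 2 or Combo replicate 3, and the second 0.94 and 0.90 without GLP-1RA replicate 1 or Combo replicate 3, all under the fold limit.

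The Vehicle vs WT effect differed between the tissues for 22 of the 34 members in an interaction test (limma voom, with weights per tissue). It did so for 53.0% of 13076 genes. The fit held no term for the mouse and treated the 30 libraries as independent, although BM and ATMs of a group can come from the same mice. The difference, ATMs minus BM, was most negative for *Scd2* (-3.95 ± 0.19, adjusted p = 7.65e-21) and most positive for *Msmo1* (2.52 ± 0.16, adjusted p = 1.9e-16). *Scd2* rose in BM and fell in ATMs, and *Msmo1* fell in BM and rose in ATMs. In all, 9 members passed the test in both tissues in opposite directions. *Insig1*, *Hmgcs1*, *Cyp51* and *Msmo1* fell in BM and rose in ATMs, and *Fdps*, *Fasn*, *Elovl6*, *Scd2* and *Fads1* did the reverse. With scaling by total counts alone, *Cyp51* in ATMs was -0.14 and *Fads1* in BM had an adjusted p of 0.406 (edgeR), so neither held. A further 8 passed in both in the same direction. The share of all genes in either case was not counted, so these counts are not read as a trait of the list. BM is a mixture of cells and ATMs are a sorted fraction, so a difference between tissues holds a difference in cell makeup, whose part was not tested.

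**Figure D5:**
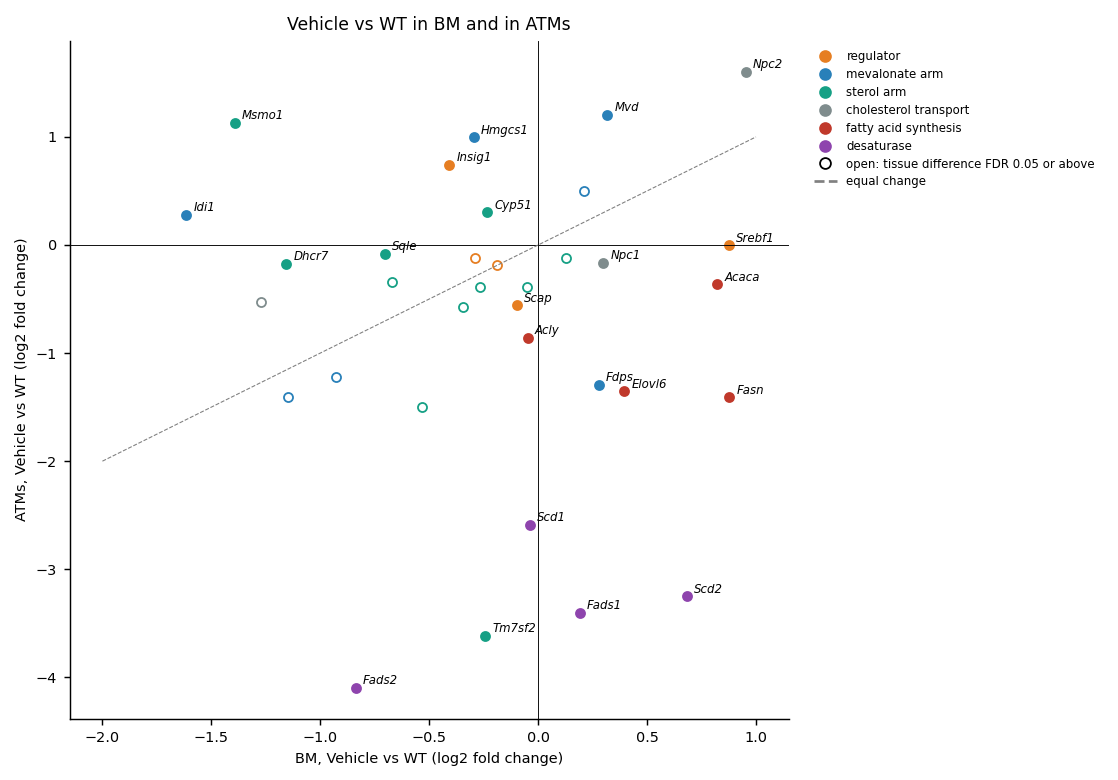
Log2 fold change of Vehicle vs WT in BM (horizontal axis) and in ATMs (vertical axis) for the 34 genes, coloured by role, with named filled points where the 2 effects differed (interaction test, adjusted p below 0.05) and a dashed line of equal change. The 4 desaturases lie at the bottom with *Tm7sf2*, at -2.59 or below in ATMs and between -0.84 and 0.68 in BM, and *Msmo1* lies at upper left.

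A wider list of 32 other genes of sterol and fatty acid metabolism, of which 29 were measured in BM and 32 in ATMs, was counted in the same way. In BM, 13 of 29 rose (37.8% of all genes) and 11 fell (38.8%) in Vehicle vs WT, and 15 rose (37.9%) and 6 fell (35.8%) in Combo vs Vehicle. In Combo vs Vehicle, *Aacs* (1.43 ± 0.046) and *Acacb* (1.06 ± 0.23) were among those called higher. In Vehicle vs WT, *Dgat2* (1.19 ± 0.039) and *Acacb* (1.49 ± 0.29) were called higher and *Cyp27a1* (-1.41 ± 0.14) and *Gpam* (-1.11 ± 0.074) lower.

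In ATMs, 9 of the 32 rose (24.3% of all genes) and 14 fell (32.6%) in Vehicle vs WT, and 10 rose (25.0%) and 12 fell (23.7%) in Combo vs Vehicle. Among those called higher in Vehicle vs WT were *Ch25h*, which makes 25-hydroxycholesterol (3.65 ± 0.20), and *Dgat2* (1.02 ± 0.084). Called lower were *Cyp27a1* (-3.43 ± 0.16), *Gpam* (-2.20 ± 0.22), *Acsl1* (-1.62 ± 0.11), *Acacb* (-1.44 ± 0.44), *Mbtps1* (-1.40 ± 0.14), *Tecr* (-1.37 ± 0.086), *Hacd3* (-1.36 ± 0.18) and *Hacd2* (-1.16 ± 0.15). In Combo vs Vehicle, *Ch25h* was called lower (-4.30 ± 0.21), and *Cyp27a1* (1.84 ± 0.15), *Acacb* (1.46 ± 0.44), *Tecr* (1.20 ± 0.086), *Gpam* (1.11 ± 0.22) and *Soat1* (1.03 ± 0.084) were called higher.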

How the data were processed

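Whole BM and F4/80+ ATMs gave 15 polyA RNA-seq libraries each. The authors used STAR 2.7.2a for alignment to mm10 and featureCounts 2.0.1 with GENCODE M22 for counting. Strand was ignored, reads of mapping quality under 10 were dropped, and a read over several genes was counted for each. They deposited raw read counts without low-count genes. Totals of 24876074 to 45300263 counts per library limit precision for low genes such as *Tm7sf2*.

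Each tissue was fitted on its 15 libraries with edgeR 4.0.16 (TMM, robust quasi-likelihood, filterByExpr, which removed 0 genes) in R 4.3.3, with Benjamini-Hochberg adjustment over all genes. Normalized counts are counts divided by effective library size times its mean. The tissue interaction used limma 3.58.1 (voom with quality weights by tissue). Alternatives included DESeq2 1.42.0, other scaling and filters, a replicate block and leaving out each library. The code was tested on simulated data. The members and lists were chosen with earlier results of these data known. Values in every library were given for a panel of 20 members and for at most 12 called members per tissue, those with the smallest F-test p. The labels state 3 mice per group and independent biological replicates, and the libraries of a group differed beyond sampling noise, which does not show that they came from separate mice. Some genes of the wider list are not reported here by name.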

Additional observations from a re-analysis of the deposited data

Results flagged for a closer look

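The Vehicle vs WT effect differed between ATMs and BM for 22 members (limma voom interaction, adjusted p below 0.05), and the difference, ATMs minus BM on the log2 scale, is given for each. Among the regulators it was -0.90 for *Srebf1*, -0.52 for *Scap* and 1.15 for *Insig1*. In the mevalonate arm it was 1.29 for *Hmgcs1*, 0.87 for *Mvd*, 1.91 for *Idi1* and -1.57 for *Fdps*. In the sterol arm it was 0.63 for *Sqle*, 0.53 for *Cyp51*, -3.92 for *Tm7sf2*, 2.52 for *Msmo1* and 0.96 for *Dhcr7*. For the transporters it was -0.46 for *Npc1* and 0.65 for *Npc2*. In fatty acid synthesis it was -0.81 for *Acly*, -1.32 for *Acaca*, -2.32 for *Fasn* and -1.75 for *Elovl6*, and among the desaturases -2.56 for *Scd1*, -3.95 for *Scd2*, -3.65 for *Fads1* and -3.29 for *Fads2*. The share of all genes that differed in this test, which held no term for the mouse, was 53.0%.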

How the results depend on the processing

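Of 2037 values of single genes under the alternatives, 1946 kept direction and side of the threshold, 88 kept direction but no longer passed the threshold they had passed (the adjusted p or, for called genes, also the fold limit) and 3 reversed, all 3 in ATMs with libraries scaled by total counts alone: *Cyp51* in Vehicle vs WT (-0.14), *Insig1* (0.11) and *Hmgcs1* (0.16) in Combo vs Vehicle. That scaling moved the median of all genes by up to 0.257 in BM and 0.439 in ATMs (log2) and raised the ATM members called in Combo vs Vehicle from 9 to 14. Without the fold limit, the members past an adjusted p of 0.05 in BM were 28 in Vehicle vs WT, GLP-1RA vs Vehicle and Anti-IL-17A vs Vehicle. They were 29 in Combo vs Vehicle, 26 in Combo vs WT, 29 in Combo vs GLP-1RA and 24 in Combo vs Anti-IL-17A. In ATMs they were 20 with GLP-1RA, 16 with Anti-IL-17A and 22 with Combo against Vehicle. They were 23 in Combo vs WT, 21 in Combo vs GLP-1RA and 16 in Combo vs Anti-IL-17A there. For Combo against WT or a single agent, the share of all genes past the adjusted p was not counted. Leaving out 1 library gave 1 to 2 members called in ATM Combo vs GLP-1RA, 12 to 15 in ATM Vehicle vs WT, 7 to 9 in ATM Combo vs Vehicle and 14 to 15 in BM Combo vs Vehicle, and the ATM median in Combo vs GLP-1RA ranged from -0.0366, without GLP-1RA replicate 1, to 0.20. Depth limits *Tm7sf2*, at 2 counts in 1 ATM Vehicle library.

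Within a tissue, libraries of different groups with the same replicate number did not deviate together (correlations of -0.068 to 0.142 in BM and -0.039 to 0.034 in ATMs). The numbers were therefore not taken to pair libraries across groups. Whether BM and ATM libraries of a group with the same number came from the same mouse was not tested. With a replicate block, 15 members were called in BM Combo vs Vehicle and 8 in ATM Combo vs Vehicle, where *Tm7sf2* was lost (adjusted p = 0.0706), 63 of the 68 tests of members over both tissues differed among the 5 groups, and 23 members differed between the tissues.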
